A study of Mus musculus with 48 samples.

Results

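The cerebral cortex of Chd8 V986*/+ mice aged 12 months was compared with that of Chd8 V986*/+ mice aged 6 months. The 12 samples, 6 at each age, are those that their labels assign to this genotype and to these ages, out of 48 samples in the series, and all 24444 genes of the deposited table were considered. The series followed WT and heterozygous mice from embryonic day 14.5 to 12 months by RNA-seq, to see how loss of a single copy of Chd8 plays out over life. Every sample is the dissected cortex of a single hemisphere of 1 male C57BL/6J mouse. Both age groups, called HET here, are heterozygous for a CRISPR-made allele that ends the protein early, at V986, and all carriers trace back to 1 male that was bred to C57BL/6J. The WT mice of 6 and 12 months, 6 at each age and of the same strain and sex, carry no mutant allele and are used to show where the HET comparison differs. Mice of different ages are different animals, and the hour at which each cortex was taken is not given in the sources used here, so age cannot be told apart from whatever else differed between the cohorts.

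CHD8 is a chromodomain helicase that moves nucleosomes and sits at the promoters of many genes active in neurons and their progenitors, and loss of a single copy in people is among the best known genetic causes of autism. The mature cortex still changes slowly between middle adulthood and older age: oligodendrocytes go on adding myelin, microglia and complement become more active, and the reserve of chaperones that fold proteins in the cytosol and in the endoplasmic reticulum (ER) is adjusted to demand. Chaperone genes and the genes that neurons switch on with activity also respond within hours to temperature, stress and time of day.

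Expression is given as variance-stabilized (VST) values, which are on a log2 scale: for well-expressed genes a difference of 1 is close to a doubling, and differences of weakly expressed genes understate the change. The most frequent value of the table, 2.14, was taken as its floor, although single values of corrected data can lie below it. Genes were tested with limma when their mean over the 12 mice lay at least 0.5 above that floor, and called when the p-value adjusted over all 17254 tested genes was below 0.1. Levels of key genes are given as the lowest, the median and the highest of the 6 mice of a group. Read depth is not given gene by gene, and the spread between mice is the measure of precision.

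All 12 samples carried the marks of cortex. Slc17a7, the vesicular glutamate transporter of cortical excitatory neurons, was at 15.14, 15.20 and 15.32 in the HET mice of 6 months and at 15.05, 15.14 and 15.28 in those of 12 months. Tbr1, a transcription factor of cortical projection neurons, ranged from 11.87 to 12.27 at 6 months and from 11.88 to 12.30 at 12 months. Gad1, which makes GABA in interneurons, ranged from 13.19 to 13.73 and from 13.26 to 13.89. None of the 13 projection neuron genes and none of the 15 interneuron genes was called between the ages by limma, against 3 and 4 of them with an unadjusted p under 0.05, and the median log2 differences of the lists were −0.042 and −0.0099.

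Chd8 itself did not pass the test between the ages. Its VST expression was 10.97, 11.14 and 11.17 in HET mice of 6 months and 11.09, 11.10 and 11.17 in those of 12 months, and the ranges overlap. The difference, 12 months minus 6 months, was −0.0041 (SE 0.037, adjusted p = 0.972), with an exact two-sided permutation p of 0.913 over 924 arrangements of the mice, where 0.0022 is the smallest that 6 against 6 mice can give. Every HET mouse of both ages lay below every WT mouse of these ages, which ranged from 11.72 to 11.78 at 6 months and from 11.36 to 11.80 at 12 months. The gene lies on the minus strand at chr14:52817826-52857466 in mm9. Among the 10 chromodomain helicase genes, Chd8 included, limma called none, with 2 at an unadjusted p under 0.05 and a median of −0.052.

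The genes called from 6 to 12 months in HET cortex included lower genes of protein folding and neuronal activity and higher genes of myelin, and most members of each of those lists were not called. Of 17254 genes tested, 592 were called (3.43%), 185 higher at 12 months (1.07%) and 407 lower (2.36%). The changes were mostly small. The median difference was 0.33 among the genes called higher and −0.22 among those called lower, and 64 of the 592 exceeded 0.5 in size. The median over all genes tested was −0.0021. In 309 genes (1.79%), the mice of the ages did not overlap, with 122 higher and 187 lower at 12 months, and 86 genes called higher and 147 called lower were among them.

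The number of calls rested on single mice and on the design of the fit. It fell to 302, 209 and 249 without 6-month replicate 2, 3 or 4, and to 314, 270 and 275 without 12-month replicate 2, 3 or 4, and it was 814 without 6-month replicate 5, whereas in a fit of all 48 samples of the series, which sets the filter and the spread over them all, it was 100. The deposited table holds no overall difference between replicates 1 to 3 and replicates 4 to 6. Within replicates 1 to 3, limma called 9 genes, and within replicates 4 to 6 it called 2, with 3 mice an age. Some mice stood apart for particular genes: 6-month replicate 1 for pituitary hormones, 6-month replicate 2 and 12-month replicate 3 for olfactory bulb genes, and 12-month replicate 6 for hippocampal genes. Without them, in turn, 655, 302, 270 and 571 genes were called. The mean level of the olfactory bulb genes was 9.16 and 9.38 in these 2 mice, against at most 7.66 and 8.29 in the others of their ages, and meningeal genes were highest in 6-month replicate 2 at 8.39 and, at 12 months, in replicates 6 and 3 at 8.45 and 8.26.

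**Figure D1:**
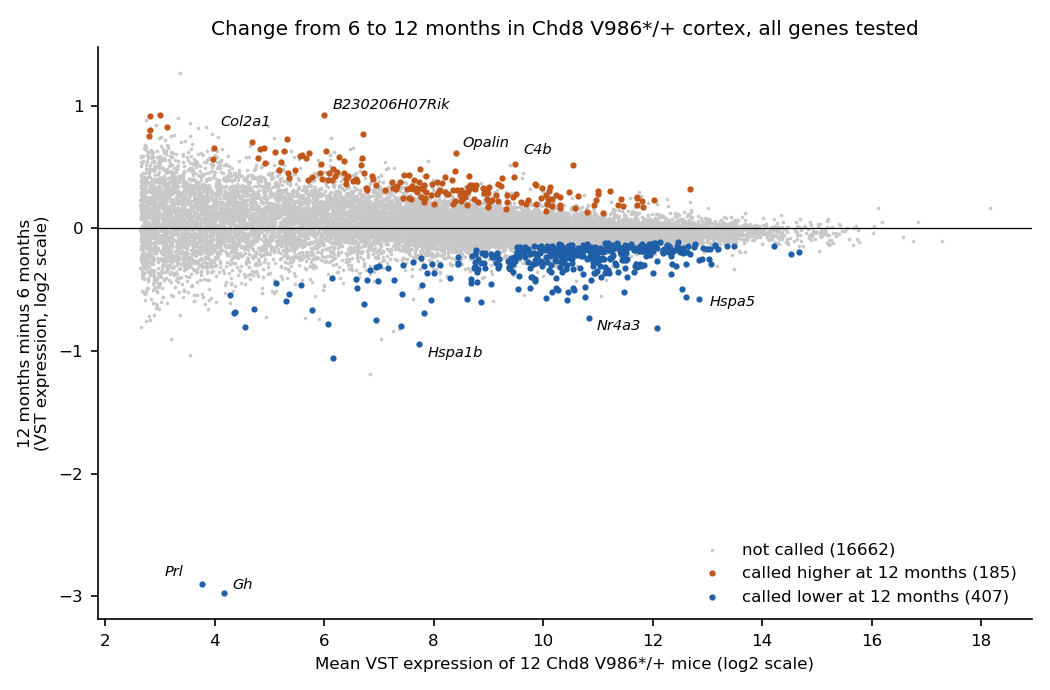
Each point is 1 of the 17254 genes tested, with its mean VST expression over the 12 Chd8 V986*/+ mice on the horizontal axis and the difference between 12 and 6 months on the vertical axis, both on the log2 scale. The 185 genes called higher are orange, the 407 called lower are blue, and Gh and Prl lie apart at −2.97 and −2.90.

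Some ER chaperones and genes of the unfolded protein response were lower at 12 months. Of 32 tested members of this list, 11 were called, all lower, beside 2.36% of all genes called lower. In 7 members the mice of the ages did not overlap, beside 1.79% of all genes. The median difference of the list was −0.13. The calls took in the luminal chaperone Hspa5 (BiP), the disulfide isomerases Pdia4 and Pdia6, the cochaperones Dnajc3 and Sdf2l1, the secreted ER protein Manf, and Xbp1, a transcription factor of the unfolded protein response. Atf4, which drives the branch of the response that follows a pause in translation, also fell, by 0.16 (SE 0.046, adjusted p = 0.0965), and 6 of the 32 members had differences above 0.

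Hspa5, the main Hsp70 chaperone of the ER lumen, stood at 12.79, 13.09 and 13.49 in 6-month HET mice and at 12.49, 12.55 and 12.63 at 12 months, a difference of −0.58 (SE 0.090, adjusted p = 0.00912). All 6 older mice lay below all 6 younger ones, and the older mice were close to each other. Pdia4, which forms disulfide bonds in secreted proteins, went from 10.19, 10.44 and 10.80 to 9.91, 9.99 and 10.09, a difference of −0.49 (SE 0.085, adjusted p = 0.0141). Xbp1 fell by 0.37 (SE 0.065, adjusted p = 0.0144) and Pdia6 by 0.31 (SE 0.061, adjusted p = 0.0219), in both cases with no overlap between the ages. Leaving out 1 mouse left between 6 and 12 members called, fewest without 6-month replicates 2, 3 and 4 (7, 6 and 7) or 12-month replicates 2, 3, 4 and 5 (7, 7, 7 and 7). Of the 32, 8 were called with the replicate number as a block and 7 after quantile normalization. In the fit of all 48 samples with limma none of the 32 passed, although 12 had an unadjusted p under 0.05, and Hspa5 then had an adjusted p of 0.108.

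The sequences upstream of these genes were read because members of the list moved together. The ER stress response element is a promoter motif of CCAAT, then 9 bases of any kind (N), then CCACG, and both strands were searched in the 250 bases before each gene's start in RefSeq promoters of GRCm38.p6. It was present in 37 of 32851 promoters (0.113%) and in 9 of the 28 list members that have a promoter there. The element is named for the ER stress response, and the list was chosen for that response. Its share in the list therefore says nothing about the change with age. Of the 9 members with a match, Hspa5, Pdia6 and Dnajc3 were called lower, as were 6 of the 19 members without a match. The promoters of these 3 genes are shown beside those of Hsp90b1 and Creld2, which hold the motif but were not called, at −0.13 (adjusted p = 0.322) and −0.42 (adjusted p = 0.101). The other members with the motif, Calr, Canx, Syvn1 and Derl3, are not shown. They were not called either, at −0.185, −0.049, −0.13 and 0.15. Capitals mark the matches, which are a description of the letters and not of a bound site. The stretches lie at chr2:34771840-34772089, chr12:17266339-17266588, chr14:118937682-118937931 and chr15:88819396-88819645 on the plus strand and at chr10:86705445-86705694 on the minus strand, each written 5′ to 3′ along its gene. Hsp90b1 has 2 matches, 1 on each strand, and that of Creld2 is on the opposite strand.
Hspa5: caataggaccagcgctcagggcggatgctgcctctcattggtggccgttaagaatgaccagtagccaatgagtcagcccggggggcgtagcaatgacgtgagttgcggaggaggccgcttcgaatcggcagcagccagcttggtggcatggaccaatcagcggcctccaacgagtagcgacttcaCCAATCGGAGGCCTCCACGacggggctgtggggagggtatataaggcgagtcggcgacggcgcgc
Pdia6: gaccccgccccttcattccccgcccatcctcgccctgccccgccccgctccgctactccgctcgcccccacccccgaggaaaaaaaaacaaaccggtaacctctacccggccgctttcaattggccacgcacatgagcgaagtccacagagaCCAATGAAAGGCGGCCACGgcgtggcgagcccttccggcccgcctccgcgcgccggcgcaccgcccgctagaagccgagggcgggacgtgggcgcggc
Dnajc3: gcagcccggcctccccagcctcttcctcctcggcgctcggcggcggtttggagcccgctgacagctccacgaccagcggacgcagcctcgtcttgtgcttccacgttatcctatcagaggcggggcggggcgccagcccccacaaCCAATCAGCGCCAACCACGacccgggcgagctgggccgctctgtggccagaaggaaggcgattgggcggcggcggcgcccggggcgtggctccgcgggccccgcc
Hsp90b1: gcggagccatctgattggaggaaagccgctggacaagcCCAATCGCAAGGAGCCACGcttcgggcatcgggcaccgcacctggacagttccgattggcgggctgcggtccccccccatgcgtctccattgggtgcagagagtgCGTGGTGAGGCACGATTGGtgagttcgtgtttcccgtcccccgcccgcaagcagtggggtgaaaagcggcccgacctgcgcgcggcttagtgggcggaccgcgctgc
Creld2: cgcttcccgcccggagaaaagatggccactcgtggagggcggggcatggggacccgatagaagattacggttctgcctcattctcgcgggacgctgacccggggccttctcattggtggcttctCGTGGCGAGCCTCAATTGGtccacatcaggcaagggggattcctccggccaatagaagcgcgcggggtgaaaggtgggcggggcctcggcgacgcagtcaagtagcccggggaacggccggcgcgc

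Some heat shock genes fell as well. The list holds mostly chaperones of the cytosol, with the mitochondrial chaperones Hspd1 and Hspe1 and the transcription factor Hsf1, none of these called. Of 25 tested, 10 were called, all lower, beside 2.36% of all genes called lower. Differences below 0 were found in 24, beside 8775 of all 17254 genes tested, and the median was −0.13. Hspa1b, the stress-inducible Hsp70, fell most, from 7.41, 8.31 and 8.83 to 7.11, 7.29 and 7.36, a difference of −0.95 (SE 0.17, adjusted p = 0.0144). No older mouse reached the lowest younger mouse, and the older mice spanned a narrow range. Hspa1b is nearly identical to Hspa1a, which was also called at −0.54 (SE 0.14, adjusted p = 0.0625), so reads may be divided between them and both values are uncertain.

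Hspb1, a small heat shock protein that holds unfolded clients, fell by 0.75 (SE 0.16, adjusted p = 0.0327). Dnajb5 and Dnajb4, Hsp40 cochaperones that hand clients to Hsp70, differed by −0.52 (SE 0.078, adjusted p = 0.00808) and −0.23 (SE 0.042, adjusted p = 0.0158), and Chordc1, a partner of Hsp90, by −0.34 (SE 0.054, adjusted p = 0.00938). Dnajb5 went from 11.38, 11.83 and 11.92 to 11.14, 11.21 and 11.37. In these 4 genes the ages did not overlap, and the calls held whichever mouse was left out, while between 9 and 12 members of the list were called in those fits. In the fit of all 48 samples 3 of the 25 were called, and Hspb1 and Chordc1 were not, with adjusted p-values of 0.149 and 0.177. The CCT chaperonin, which folds actin and tubulin, had differences below 0 in all 8 subunits, with a median of −0.074, and limma called none of them (4 with an unadjusted p under 0.05).

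The mean level of the lists in each mouse shows how the ages are spaced. For the 32 ER genes it was 10.18, 10.27 and 10.39 in the 6-month HET mice and 10.07, 10.12 and 10.16 in the 12-month mice. The heat shock list stood at 10.95, 11.09 and 11.20 and 10.83, 10.85 and 10.88. In both lists every 12-month HET mouse was below every 6-month HET mouse. Of the 6-month HET mice, replicates 2 and 3 were highest in both lists and also for the glucocorticoid-induced genes described below, at 9.73 and 9.84. Of the 12-month HET mice, replicate 6 was highest for the glucocorticoid-induced genes, at 9.44, and lowest for the heat shock list, at 10.83. The median difference of the ER list was −0.15 within replicates 1 to 3 and −0.14 within replicates 4 to 6, and that of the heat shock list was −0.16 and −0.13.

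WT mice of 12 months were far more uneven in these genes. Their ER list means were 10.07 and 10.13 in replicates 3 and 4 and from 10.40 to 10.50 in the others, and Hspa5 ran from 12.44 to 13.56. The heat shock list was likewise at 10.79 and 10.88 in replicates 3 and 4, and from 11.25 to 11.42 in the other mice. The glucocorticoid-induced genes were also lowest in replicates 3 and 4, at 8.77 and 8.89, and from 9.56 to 9.91 in the other mice. The cold-inducible RNA-binding proteins Cirbp and Rbm3, whose transcripts rise when tissue cools, ran the other way, with a mean of 10.46 and 10.41 in replicates 3 and 4 and from 9.29 to 9.48 in the others. In HET mice, Cirbp rose from 9.68, 9.82 and 10.03 at 6 months to 9.89, 10.19 and 10.35 at 12 months, a difference of 0.33 (SE 0.072, adjusted p = 0.0327), with overlap, and Rbm3 differed by 0.10 (SE 0.11, adjusted p = 0.704). The adjusted p of Cirbp was 0.355 in the fit of all 48 samples. Whether body temperature, stress or handling before collection played a part in these genes was not tested.

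In WT mice, the median difference between the ages was 0.042 for the ER list and 0.14 for the heat shock list, and limma called no member of either in WT. The HET change with age minus the WT change was not called for any of them by the interaction test: for Hspa5 it was −0.78 (SE 0.26, adjusted p = 0.473), and for Hspa1b −1.10 (SE 0.40, adjusted p = 0.497).

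**Figure D2:**
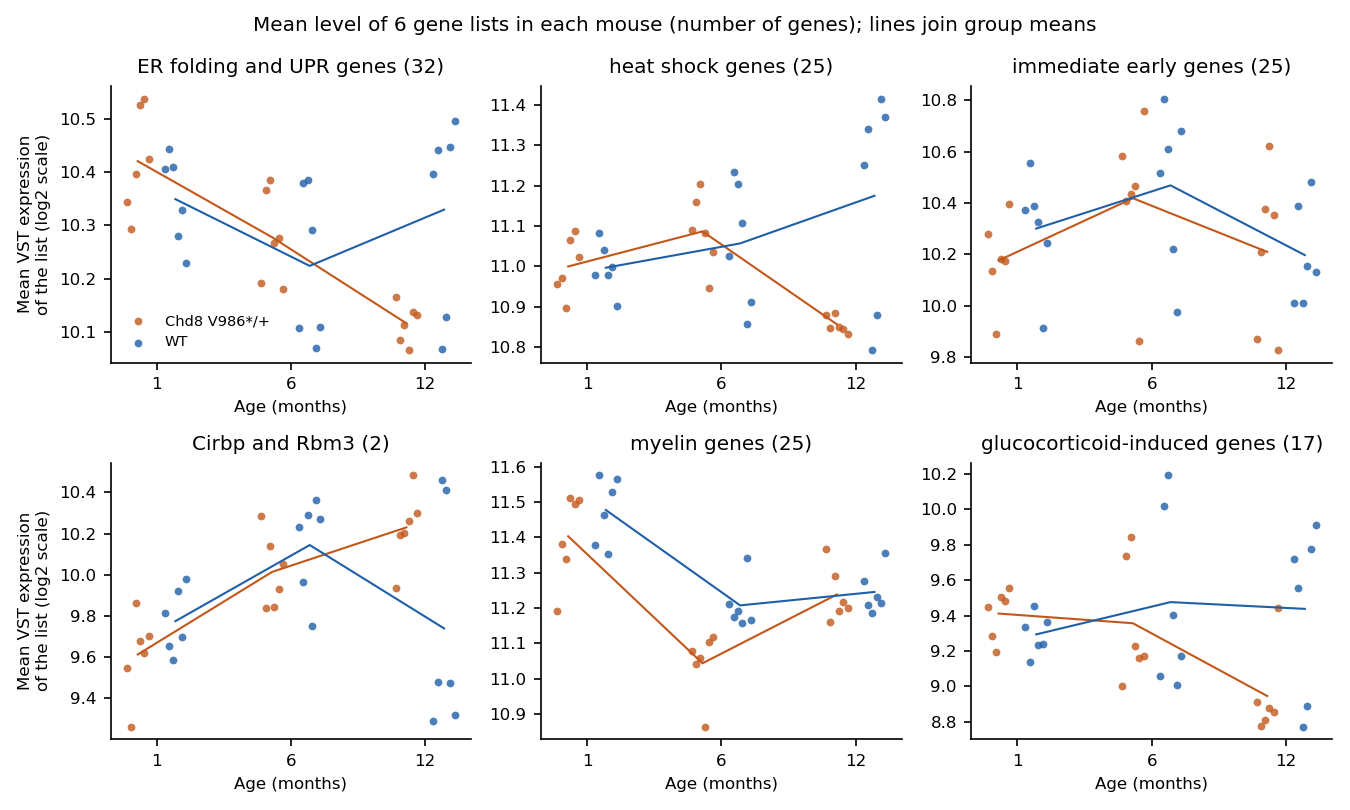
Points are the mean VST expression (log2 scale) of the tested genes of 6 lists in each mouse, at 1, 6 and 12 months on the horizontal axis, orange for Chd8 V986*/+ and blue for WT, and lines join the means of the 6 mice. For the 32 ER genes, the HET mice ranged from 10.18 to 10.39 at 6 months and from 10.07 to 10.16 at 12 months.

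Some genes that neurons switch on with activity were lower at 12 months, and others were not called. Of 25 tested, 8 were called, all lower, beside 2.36% of all genes called lower, with a median difference of −0.31 over the list. Those called included Homer1, a scaffold of glutamate receptors at the synapse, the growth factor Bdnf, and the transcription factors Egr3 and Nr4a3. The mean level of the list was 9.86, 10.45 and 10.76 at 6 months and 9.83, 10.28 and 10.62 at 12 months, with the ages overlapping over most of their range. Differences above 0, none of them called, were found in Btg2, Dusp1 and Ier2, at 0.51 (SE 0.28, adjusted p = 0.394), 0.29 (SE 0.20, adjusted p = 0.525) and 0.29 (SE 0.22, adjusted p = 0.58). Fos, Junb and Npas4 differed by 0.061 (SE 0.35, adjusted p = 0.958), 0.029 (SE 0.20, adjusted p = 0.965) and 0.29 (SE 0.29, adjusted p = 0.685), and Arc by −0.31 (SE 0.24, adjusted p = 0.588).

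Homer1 was at 12.60, 12.88 and 13.12 at 6 months and 12.05, 12.35 and 12.46 at 12 months, a difference of −0.56 (SE 0.079, adjusted p = 0.00808). Bdnf went from 9.80, 9.93 and 10.02 to 9.53, 9.61 and 9.68, a difference of −0.32 (SE 0.045, adjusted p = 0.00808). In both genes the 12 mice parted by age without overlap. Egr3 differed by −0.50 (SE 0.078, adjusted p = 0.00912) and Nr4a3 by −0.73 (SE 0.15, adjusted p = 0.0276), with overlap in both. Nr4a3 in the older mice was between 10.52 and 10.64 except for replicate 6, at 9.83. From 5 to 10 members were called when 1 mouse was left out, and 5 without 6-month replicates 2, 3 and 4 (5, 5 and 5) or 12-month replicates 2 and 6 (5 and 5). In the fit of all 48 samples 2 of the 25 were called, and Bdnf and Egr3 were not, with adjusted p-values of 0.394 and 0.108. The list median was −0.37 within replicates 1 to 3 and −0.17 within replicates 4 to 6.

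The WT mice showed a median of −0.30 for the same list, with no call in limma. Homer1 in WT went from 12.41, 12.78 and 13.32 to 12.37, 12.48 and 13.15, a difference of −0.17 (SE 0.17, adjusted p = 0.779), and the genotypes' differences in Homer1 were not told apart by the interaction test, at −0.40 (SE 0.20, adjusted p = 0.587). Bdnf ranged from 9.54 to 10.53 in 12-month WT mice, more widely than in HET mice of the same age.

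Another 4 genes are named for the size of their decrease alone. Dusp4, a phosphatase that turns off MAP kinases, went from 8.50, 8.99 and 9.10 to 8.09, 8.35 and 8.50, a difference of −0.58 (SE 0.098, adjusted p = 0.0123). Rasd1, a small G protein induced by glucocorticoids, fell by 0.59 (SE 0.11, adjusted p = 0.0165), and Cbfa2t3, a transcriptional corepressor, fell by 0.57 (SE 0.089, adjusted p = 0.00912). Zdbf2, an imprinted gene, differed by −0.52 (SE 0.081, adjusted p = 0.00912). In all 4 the ages did not overlap and the call held without any single mouse. In the fit of all 48 samples the adjusted p was 0.13 for Rasd1, 0.106 for Cbfa2t3 and 0.108 for Zdbf2.

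Clock genes and glucocorticoid-induced genes had few calls. Per2 and Bhlhe40, repressors in the circadian loop, were the 2 of 19 clock genes called (2.36% of all genes were called lower), at −0.59 (SE 0.15, adjusted p = 0.0554) and −0.37 (SE 0.10, adjusted p = 0.0788), and the list median was −0.083. Per2 went from 10.18, 10.86 and 10.96 to 9.61, 10.16 and 10.64, with overlap. Cry1 and Clock were not called, at −0.24 (SE 0.077, adjusted p = 0.136) and −0.095 (SE 0.038, adjusted p = 0.23). Per2 lost its call without 6-month replicates 2, 3 and 4 (0.103, 0.139 and 0.126) or 12-month replicates 2, 3 and 4 (0.117, 0.106 and 0.115). Bhlhe40 lost it without 6-month replicates 2, 3, 4 and 6 (0.148, 0.181, 0.17 and 0.132) or 12-month replicates 1, 2, 3, 4 and 5 (0.119, 0.139, 0.158, 0.148 and 0.104). Cry1 would pass without 6-month replicate 5 (0.0462) or 12-month replicate 6 (0.0665). The number of clock genes called by limma moved without 6-month replicates 2, 3, 4, 5 and 6 (0, 0, 0, 4 and 1) or 12-month replicates 1, 2, 3, 4 and 5 (1, 0, 0, 0 and 1), against 6 with an unadjusted p under 0.05 in all 12 mice. The hour of collection was not given, and its part was not tested.

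Glucocorticoid-induced genes, which rise with stress hormones, had differences below 0 in all 17 members, with a median of −0.33, and 2 were called (2.36% of all genes were called lower), Pdk4 at −0.33 (SE 0.090, adjusted p = 0.0788) and Errfi1 at −0.31 (SE 0.091, adjusted p = 0.0999). Their mean level was 9.0018, 9.20 and 9.84 at 6 months and 8.78, 8.87 and 9.44 at 12 months, with overlap, since 12-month replicate 6 was the highest of its group. Tsc22d3 and Lcn2, further targets of the hormone, were not called at −0.55 (SE 0.18, adjusted p = 0.141) and −1.03 (SE 0.31, adjusted p = 0.106). The calls were fragile. Pdk4 was lost without 6-month replicates 2, 3 and 4 (0.15, 0.174 and 0.16) or 12-month replicates 1, 2, 3 and 4 (0.125, 0.151, 0.161 and 0.106), and Errfi1 without 6-month replicates 1, 2, 3, 4 and 6 (0.106, 0.185, 0.228, 0.171 and 0.156) or 12-month replicates 1, 2, 3, 4 and 5 (0.16, 0.179, 0.191, 0.153 and 0.119). The number called by limma moved without 6-month replicates 2, 3, 4 and 5 (0, 0, 0 and 5) or 12-month replicates 1, 2, 3, 4, 5 and 6 (0, 0, 0, 0, 1 and 5), against 10 with an unadjusted p under 0.05 in all 12 mice. Tsc22d3 passed without 6-month replicate 5 (0.0833) or 12-month replicate 6 (0.0748) and Lcn2 without 6-month replicate 6 (0.0977) or 12-month replicate 6 (0.0727). The list median was −0.61 within replicates 1 to 3 and −0.13 within replicates 4 to 6, and it was −0.12 in WT.

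Some myelin genes were higher at 12 months. Of 25 genes of mature oligodendrocytes, 8 were called, all higher, beside 1.07% of all genes called higher. Differences above 0 were found in 24, beside 8474 of all 17254 genes tested, and the median was 0.21. Opalin, a membrane protein of myelinating oligodendrocytes, rose most. Trf, the iron carrier transferrin, Hapln2, a link protein at nodes of Ranvier, and Sept4, a septin of myelin, rose too, and Mag, Aspa, Gjb1 and Il33 made up the rest. In bulk tissue, more cells of a type and more RNA per cell cannot be told apart. Mbp, the most abundant transcript of the list, was not called, at 0.17 (SE 0.065, adjusted p = 0.215).

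Opalin was at 7.51, 8.23 and 8.40 in 6-month and 8.50, 8.71 and 8.95 in 12-month HET mice, a difference of 0.61 (SE 0.13, adjusted p = 0.0276). Trf went from 12.33, 12.51 and 12.70 to 12.74, 12.78 and 13.10, a difference of 0.32 (SE 0.065, adjusted p = 0.026), and Sept4 differed by 0.25 (SE 0.051, adjusted p = 0.0248) and Hapln2 by 0.29 (SE 0.065, adjusted p = 0.0383). In these 4 genes all older mice were above all younger ones. The list mean was 10.87, 11.07 and 11.12 at 6 months and 11.16, 11.21 and 11.37 at 12 months, again without overlap, and the lowest value was that of 6-month replicate 4. Its median was 0.18 within replicates 1 to 3 and 0.18 within replicates 4 to 6. Between 5 and 11 members were called when 1 mouse was left out, and 5 without 6-month replicates 3 and 4 (5 and 5) or 12-month replicates 3, 4 and 5 (5, 5 and 5). Of the 25 genes, 2 were called in the fit of all 48 samples, and Sept4 and Hapln2 were not, with adjusted p-values of 0.204 and 0.441.

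Myelin genes in WT mice had a median of 0.041, with list means of 11.16, 11.18 and 11.34 and 11.19, 11.22 and 11.36 at 6 and 12 months. The WT mice of 6 months lay above the HET mice of that age, which ranged from 10.87 to 11.12. In the interaction test, the HET change with age minus the WT change was 0.72 (SE 0.25, adjusted p = 0.483) for Opalin and 0.34 (SE 0.088, adjusted p = 0.435) for Sept4. For Trf and Hapln2 it was 0.13 (SE 0.10, adjusted p = 0.728) and 0.0014 (SE 0.15, adjusted p = 0.999), and none of these was called. In WT mice Trf differed by 0.19 and Hapln2 by 0.28 between the ages. In 1-month HET mice the mean was 11.19 to 11.51.

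Few genes of earlier oligodendrocyte stages were called. Gpr17, a receptor that marks progenitors committed to differentiate, had the lowest adjusted p among the genes named here. Its level was 10.32, 10.38 and 10.68 at 6 months and 9.77, 9.87 and 10.12 at 12 months, a difference of −0.52 (SE 0.065, adjusted p = 0.00425), and the ages did not overlap. Sox11, a transcription factor of immature neural cells, fell by 0.35 (SE 0.080, adjusted p = 0.0372), and was not called in the fit of all 48 samples (adjusted p = 0.189) or without the trend in the variance prior (adjusted p = 0.105). These were the 2 of 18 progenitor genes called, beside 2.36% called lower over all genes, and the list median was −0.0030, while Ptprz1 and Cspg5 were not called, at −0.15 (SE 0.053, adjusted p = 0.175) and 0.082 (SE 0.043, adjusted p = 0.368). Without 12-month replicate 1, Ptprz1 had an adjusted p of 0.0875. After quantile normalization, Cspg5 was called higher, at 0.13 (adjusted p = 0.0931), and the list median was 0.0028. That median was 0.0063 within replicates 1 to 3 and −0.061 within replicates 4 to 6.

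Among 19 genes of newly formed oligodendrocytes, Gpr17 and the noncoding 9630013A20Rik were called, both lower (2.36% over all genes), with a median of −0.042. 9630013A20Rik differed by −0.66 (SE 0.17, adjusted p = 0.0595) in HET mice, with overlap. It was the only gene called between these ages in WT mice, at −0.90 (SE 0.13, adjusted p = 0.065). Its HET call was lost without 6-month replicates 2, 3 and 4 (0.11, 0.131 and 0.107) or 12-month replicates 1, 3 and 4 (0.106, 0.128 and 0.101). Bcas1 and Nkx2-2, also expressed at that stage, were not called, at 0.20 (SE 0.064, adjusted p = 0.138) and 0.31 (SE 0.17, adjusted p = 0.384), although Bcas1 passed without 6-month replicate 5 (0.0891) or 12-month replicate 6 (0.0391) and, after quantile normalization, was called higher at 0.24 (adjusted p = 0.0862). The count over the list was 1 without 6-month replicates 2, 3 and 4 (1, 1 and 1) or 12-month replicates 1, 3 and 4 (1, 1 and 1). Gpr17 in WT differed by −0.052 (SE 0.093, adjusted p = 0.88) between the ages. Its HET change minus its WT change was not called by the interaction test, at −0.46 (SE 0.12, adjusted p = 0.435).

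**Figure D3:**
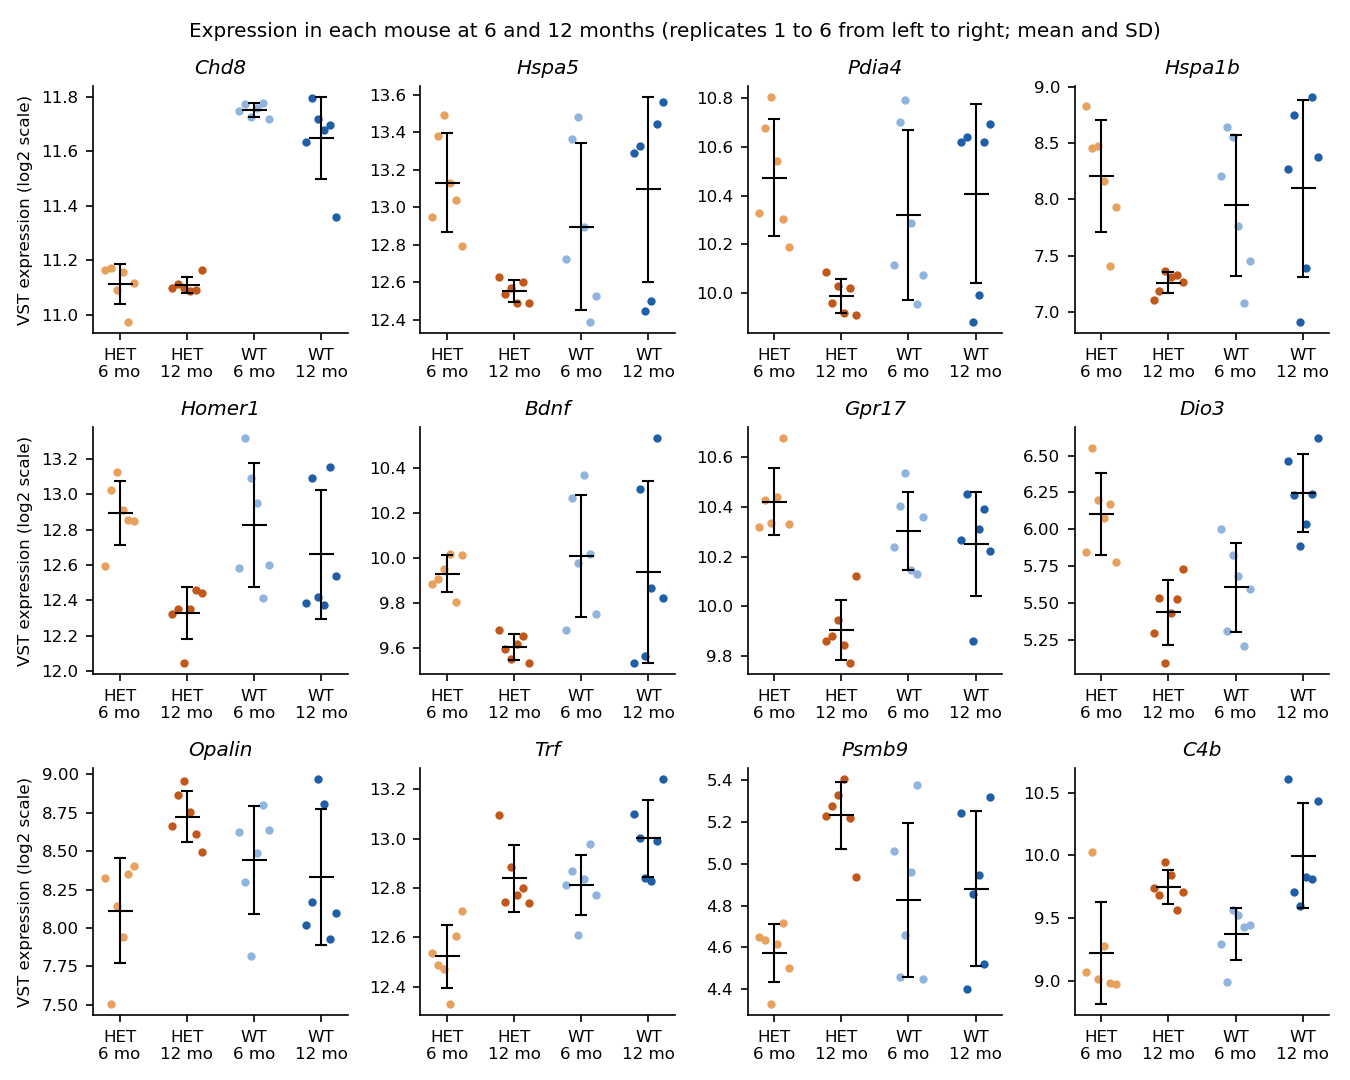
VST expression (log2 scale) of 12 genes in each mouse, with Chd8 V986*/+ mice (HET) in orange and WT mice in blue at 6 and 12 months; points are replicates 1 to 6 from left to right, and bars give the mean and the SD. Hspa5 in HET mice ranged from 12.79 to 13.49 at 6 months and from 12.49 to 12.63 at 12 months, and Gpr17 from 10.32 to 10.68 and from 9.77 to 10.12.

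A few immune genes rose. Of 25 genes of microglial activation and complement, 3 were called, all higher, beside 1.07% of all genes, with a median of 0.12 and 21 members above 0. Cd52, a surface glycoprotein of immune cells, differed by 0.63 (SE 0.13, adjusted p = 0.0276), Clec7a, a receptor of activated microglia, by 0.65 (SE 0.18, adjusted p = 0.0825), and complement C4b by 0.52 (SE 0.14, adjusted p = 0.0734). C4b shares most of its sequence with the neighbouring C4a, so its value is uncertain. None of the 20 homeostatic microglia genes was called by limma (3 with an unadjusted p under 0.05, median 0.043), with Aif1 at 0.21 (SE 0.11, adjusted p = 0.369).

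C4b stood at 8.98, 9.05 and 10.03 at 6 months and 9.57, 9.73 and 9.95 at 12 months. Of the 6-month mice, 5 lay below every older mouse, whereas replicate 2 was at 10.03, above every older mouse, and without it the difference was 0.68. C4b lost its call without 6-month replicates 1, 3, 4, 5 and 6 (0.113, 0.173, 0.127, 0.107 and 0.125) or 12-month replicates 1, 2, 3 and 4 (0.105, 0.127, 0.151 and 0.147). Clec7a was near the floor, from 3.03 to 4.02 at 6 months and from 4.06 to 4.50 at 12 months, and was lost without 6-month replicates 1, 2, 3, 4 and 5 (0.122, 0.138, 0.162, 0.108 and 0.104) or 12-month replicates 1, 2, 3, 4 and 5 (0.141, 0.164, 0.117, 0.16 and 0.119). Cd68, a lysosomal protein of phagocytes, was not called at 0.23 (SE 0.083, adjusted p = 0.177), and passed without 6-month replicate 5 (0.0967). The count of the list was 1 without 6-month replicates 1, 3 and 4 (1, 1 and 1) or 12-month replicates 1, 2, 3 and 4 (1, 1, 1 and 1). In the fit of all 48 samples limma called none of the 25, with 4 at an unadjusted p under 0.05, and Cd52, C4b and Clec7a had adjusted p-values of 0.159, 0.103 and 0.184. In WT mice C4b and Clec7a had differences of 0.62 (SE 0.15, adjusted p = 0.677) and 0.72 (SE 0.24, adjusted p = 0.724), and the list median was 0.19.

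Interferon and MHC class I genes had 2 calls of 26, both higher, beside the 1.07% over all genes, with 23 members above 0 and a median of 0.14. Psmb9, a subunit of the immunoproteasome, went from 4.33, 4.63 and 4.72 to 4.94, 5.25 and 5.4044, a difference of 0.66 (SE 0.13, adjusted p = 0.0199). Tap1, which carries peptides to MHC class I, went from 5.46, 6.07 and 6.23 to 6.24, 6.51 and 7.03, a difference of 0.58 (SE 0.15, adjusted p = 0.0637). The ages did not overlap in either gene. H2-K1 and Gbp2 were not called, at 0.25 (SE 0.091, adjusted p = 0.185) and 0.46 (SE 0.17, adjusted p = 0.187). Tap1 was lost without 6-month replicates 2 and 3 (0.11 and 0.143) or 12-month replicates 2 and 3 (0.138 and 0.132), which left Psmb9 as the single call, and its adjusted p was 0.103 in the fit of all 48 samples. In WT mice the difference of Tap1 was 0.49 (SE 0.15, adjusted p = 0.724) and that of Psmb9 0.053 (SE 0.20, adjusted p = 0.948).

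Of 16 astrocyte genes, none was called by limma, with 4 at an unadjusted p under 0.05, and Gfap and Apoe differed by 0.018 (SE 0.089, adjusted p = 0.953) and 0.037 (SE 0.059, adjusted p = 0.824). Of 20 reactive astrocyte genes, C4b and Il33 were called, both higher, beside 1.07% of all genes, and both also members of other lists here. The median of the 20 was 0.034, and 7 of them had differences below 0.

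Other genes that rose have varied roles. B230206H07Rik, a long noncoding RNA gene, had the largest increase by the rule for named genes, 0.92 (SE 0.14, adjusted p = 0.00912), from 5.13, 5.62 and 6.00 to 6.23, 6.50 and 6.62. Col2a1, the collagen of cartilage, went from 4.77, 4.96 and 5.16 to 5.36, 5.66 and 6.08, a difference of 0.73 (SE 0.13, adjusted p = 0.0158). It was the only call among 44 collagen genes, beside 1.07% of all genes called higher, and the median of that list was 0.074. Neither gene had overlapping ages. Mks1, part of the transition zone of the primary cilium, rose by 0.55 (SE 0.11, adjusted p = 0.0201), and the extracellular protease Mmp11 by 0.58 (SE 0.13, adjusted p = 0.0311). These calls held whichever mouse was left out, but Mmp11 lost its call with the replicate number as a block (adjusted p = 0.103). Zfp566, a zinc finger gene, rose from 6.37, 6.52 and 6.59 to 6.74, 6.96 and 7.17, a difference of 0.45 (SE 0.092, adjusted p = 0.0248), and Neat1, the noncoding scaffold of nuclear paraspeckles that was chosen after its values were seen, by 0.51 (SE 0.097, adjusted p = 0.0171).

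The other genes with the largest increases were A330049N07Rik at 0.65 (SE 0.14, adjusted p = 0.0305), Fam217a at 0.71 (SE 0.17, adjusted p = 0.0491), Plekha4, a phosphoinositide-binding protein, at 0.61 (SE 0.14, adjusted p = 0.0435), 2810410L24Rik at 0.60 (SE 0.14, adjusted p = 0.0434) and Carlr, a noncoding RNA, at 0.54 (SE 0.13, adjusted p = 0.0495). All 5 had older mice wholly above younger ones, and all were expressed at low levels, with means over the 12 mice between 4.68 and 5.73. The paper reports stranded libraries and reads. Whether the counting kept the strands apart is not given in the sources used here, so values of noncoding RNAs and of genes that overlap others are uncertain. A330049N07Rik held its call without any single mouse. Fam217a lost it without 6-month replicates 3 and 4 (0.121 and 0.1002) or 12-month replicates 2 and 4 (0.101 and 0.106). Plekha4 lost it without 6-month replicates 3 and 4 (0.106 and 0.102) or 12-month replicates 3 and 4 (0.102 and 0.108). For 2810410L24Rik the call was lost without 6-month replicate 3 (0.112) or 12-month replicates 3 and 4 (0.106 and 0.106), and for Carlr without 6-month replicates 2 and 3 (0.102 and 0.129) or 12-month replicate 4 (0.102). With the replicate number as a block, 2810410L24Rik also lost its call (adjusted p = 0.102).

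Cholesterol is made in the adult brain itself, and some genes of its synthesis were lower at 12 months. Cyp51, which removes a methyl group from lanosterol, fell by 0.24 (SE 0.052, adjusted p = 0.0304), and Idi1, an isomerase of isoprenoid precursors, by 0.29 (SE 0.080, adjusted p = 0.0772). Msmo1 was not called, at −0.16 (SE 0.049, adjusted p = 0.111), but was without 6-month replicate 1 (0.0674). Idi1 lost its call without 6-month replicates 3 and 6 (0.185 and 0.127) or 12-month replicates 2, 3, 4, 5 and 6 (0.113, 0.154, 0.142, 0.103 and 0.119), and Cyp51 held its call whichever mouse was left out.

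Of 18 endothelial genes, Mfsd2a, a lipid transporter of the blood-brain barrier, was the only call, near the 3.43% over all genes, and lower at −0.60 (SE 0.15, adjusted p = 0.0589), from 8.71, 9.10 and 9.68 to 8.17, 8.51 and 8.92. It was lost without 6-month replicates 2 and 3 (0.11 and 0.15) or 12-month replicates 2, 3 and 4 (0.127, 0.111 and 0.132). Ly6c1, Slc2a1 and Slco1a4 were not called, at −0.21 (SE 0.099, adjusted p = 0.317), −0.31 (SE 0.15, adjusted p = 0.34) and 0.11 (SE 0.075, adjusted p = 0.51), and the list median was 0.0025. Quantile normalization turned that median to −0.0061 and centring on the median gene to −0.0039, so it has no firm sign. None of 20 mural and fibroblast genes was called by limma, with 1 at an unadjusted p under 0.05.

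Genes of neighbouring tissues moved in some mice. Pituitary hormones had the largest decreases among the genes named: Gh, growth hormone, went from 3.68, 4.9986 and 8.98 to 1.47, 2.82 and 3.64, a difference of −2.97 (SE 0.66, adjusted p = 0.0345), and Prl, prolactin, from 3.06, 4.95 and 9.01 to 1.23, 2.69 and 3.06, a difference of −2.90 (SE 0.78, adjusted p = 0.0738). The highest 6-month mouse in both was replicate 1, at 8.98 for Gh and 9.01 for Prl, and the WT mouse of 6 months with the same number was also the highest of its group, at 7.54 and 7.60. Some of the older mice lie below the most frequent value of the table, 2.14, so these differences rest in part on values there. The 12-month means were 2.68 for Gh and 2.33 for Prl, near that value, against 5.65 and 5.23 at 6 months. Prl passed the filter, which used the mean over both ages, only because of its 6-month values. The size, SE and call of the decrease are therefore uncertain for Prl, and for Gh they rest on a 12-month mean little higher. The cortex makes little of either, and of 9 pituitary genes 4 were tested, with Pomc at −0.21 (SE 0.44, adjusted p = 0.872) and Tshb at 0.21 (SE 0.28, adjusted p = 0.771). The mean of the 4 was 3.40, 4.09 and 7.07 at 6 months and 2.45, 3.35 and 3.77 at 12 months. Prl lost its call without 6-month replicates 2, 3 and 6 (0.117, 0.142 and 0.124) or 12-month replicates 1, 2, 3 and 4 (0.106, 0.149, 0.151 and 0.113), and with the replicate number as a block (adjusted p = 0.102). Both lost theirs in the fit of all 48 samples, Gh at an adjusted p of 0.225 and Prl at 0.293. The difference of Prl was −4.71 within replicates 1 to 3 and −1.09 within replicates 4 to 6, and that of Gh was −4.00 and −1.95. Whether these transcripts came from tissue left on the cortex was not tested.

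Of 12 hippocampal and dentate genes, 2 were called, both lower, beside 2.36% of all genes called lower, and 11 had differences below 0, with a median of −0.22. Pkp2, a desmosomal plaque protein, and Ociad2 differed by −0.46 (SE 0.12, adjusted p = 0.0668) and −0.15 (SE 0.036, adjusted p = 0.0488). Dsp and Lct, which mark dentate granule cells, were not called, at −0.83 (SE 0.37, adjusted p = 0.276) and −0.82 (SE 0.35, adjusted p = 0.259). Replicate 6 of the 12-month mice lay far below the others, at 5.20 for Dsp and 5.28 for Lct, and its list mean was 7.87 against 8.58 to 8.80 in the rest of its group and 8.56 to 9.15 at 6 months. Pkp2 was lost without 6-month replicates 2, 3 and 4 (0.125, 0.163 and 0.109) or 12-month replicates 2 and 4 (0.139 and 0.145), and Ociad2 without 6-month replicates 2, 3 and 4 (0.103, 0.131 and 0.102) or 12-month replicates 3 and 4 (0.109 and 0.115). The number called by limma moved without 6-month replicates 2, 3 and 4 (0, 0 and 0) or 12-month replicates 2, 3 and 4 (1, 1 and 0), against 4 with an unadjusted p under 0.05 in all 12 mice. How much of the hippocampal border each dissection held was not tested.

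Limma called none of 16 choroid plexus, 16 striatal, 18 thalamic and midbrain, 13 olfactory bulb, 10 blood or 15 meningeal genes. The members with an unadjusted p under 0.05 numbered 0, 0, 1, 0, 1 and 1, and the medians were 0.012, 0.096, 0.074, 0.13, −0.12 and 0.056. Ttr, the main choroid plexus transcript, varied widely, from 7.98 to 12.39 at 6 months and from 8.09 to 12.92 at 12 months, a difference of −0.36 (SE 0.90, adjusted p = 0.896).

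Ribosomes and mitochondria depend on large families of abundant genes. Among 82 cytosolic ribosomal proteins, 78 mitochondrial ribosomal proteins and 77 subunits of oxidative phosphorylation, limma called none, with 0, 8 and 0 at an unadjusted p under 0.05 and medians of 0.011, −0.020 and −0.014. Of 39 proteasome subunits, the inducible Psmb9 was the only call, near the 3.43% called over all genes, and the median was −0.038. The 19 axon cytoskeleton genes, 22 glutamate receptor subunits, 15 GABA-A receptor subunits and 58 clustered protocadherins had no call in limma, with 2, 1, 1 and 6 at an unadjusted p under 0.05 and medians of −0.027, −0.014, −0.064 and 0.021.

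Single members were called in 6 further lists, chosen for mention after their values were seen, and 1 call in 14 to 26 genes lies near the 3.43% called among all genes. Syt2, a calcium sensor of fast release, was higher at 0.33 (SE 0.086, adjusted p = 0.0617), the only call among 23 synaptic vesicle genes. Crhbp, which binds corticotropin-releasing hormone, was lower at −0.25 (SE 0.068, adjusted p = 0.0788), the only call of 14 neuropeptide genes. Ccnd2, a cyclin of dividing progenitors, was the only call of 26 cell cycle genes at −0.35 (SE 0.060, adjusted p = 0.0123), and Hist3h2a the only call of 22 histone genes at −0.28 (SE 0.070, adjusted p = 0.0595). Sox11 was the single call of 23 immature neuron genes, and Tap1 that of 20 genes of p53 and senescence. The medians of these 6 lists were −0.015, −0.082, −0.038, −0.020, −0.033 and −0.041.

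**Figure D4:**
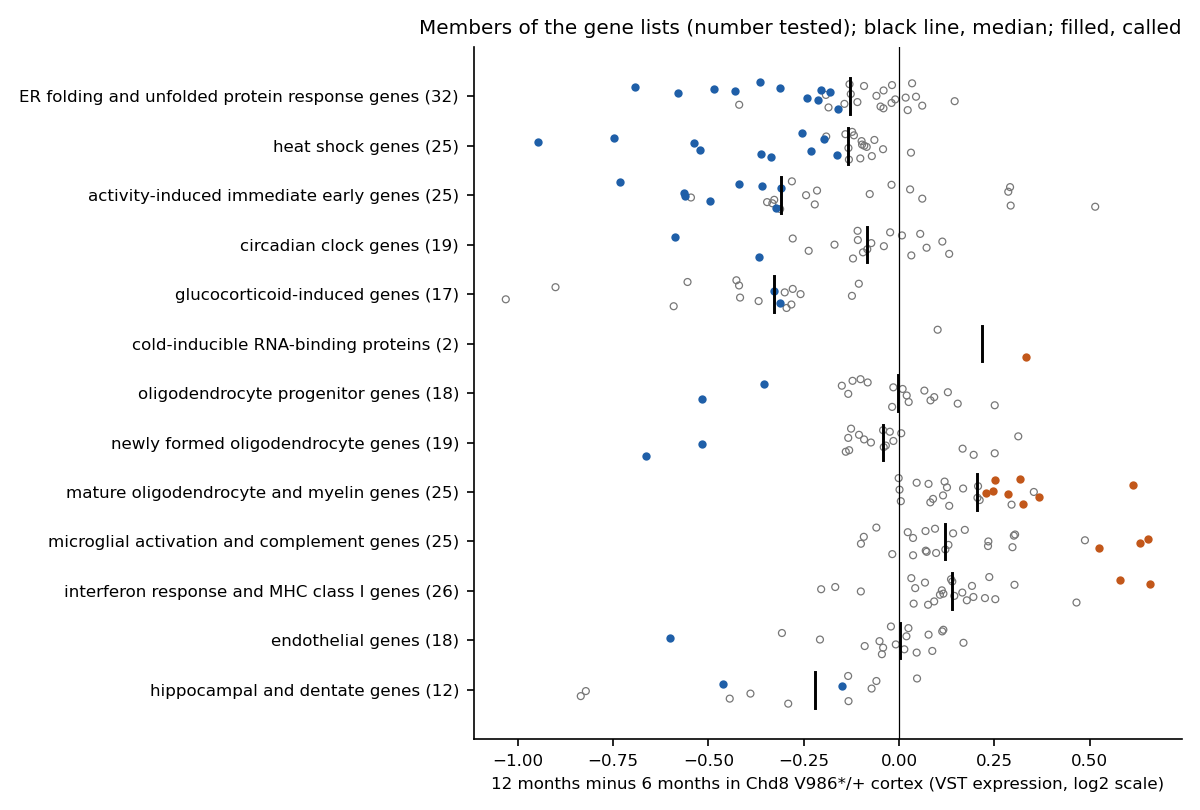
Each circle is a tested member of a gene list, placed at its difference between 12 and 6 months in Chd8 V986*/+ cortex (VST expression, log2 scale); filled circles were called, orange higher and blue lower, the black line is the median, and the number tested is in brackets. The median was −0.31 for immediate early genes, −0.13 for ER genes and 0.21 for myelin genes.

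The same ages in WT mice gave 1 call, 9630013A20Rik, of 17283 genes tested (0.00579%), with 1167 genes at an unadjusted p under 0.05 against 2744 in HET. The median SD between mice over all genes was 0.184 in 12-month WT mice and 0.122 in 12-month HET mice, so fewer calls in WT do not show a smaller change. Limma called none in WT when any of 6-month replicates 1, 2, 3, 5 and 6 or 12-month replicates 1 to 5 was left out, 2 without 6-month replicate 4, and 7 in the fit of all 48 samples.

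Of the 407 genes called lower in HET, 275 also had differences below 0 in WT (67.6%), with a WT median of −0.050, against 53.1% below 0 among all genes tested. Of the genes called higher, 88 of 184 tested in WT had differences above 0 (47.8%), with a WT median of −0.0080. The HET and WT comparisons share no mouse.

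The change with age differed between the genotypes for 2 of 17271 genes by the interaction test (0.0116%), with 1473 at an unadjusted p under 0.05. Dio3, the enzyme that inactivates thyroid hormone and an imprinted gene, went down in HET mice from 5.78, 6.12 and 6.55 to 5.10, 5.48 and 5.73, a difference of −0.67 (SE 0.14, adjusted p = 0.0302) without overlap. In WT mice it went from 5.21, 5.64 and 6.00 to 5.89, 6.23 and 6.62, a difference of 0.64 (SE 0.15, adjusted p = 0.677), and the HET change minus the WT change was −1.31 (SE 0.21, adjusted p = 0.0283). Dio3 lies at chr12:111517278-111519307 in mm9. Zfp566 had the opposite pattern, with a HET difference of 0.45, a WT difference of −0.27 (SE 0.0996, adjusted p = 0.724) and 0.72 (SE 0.13, adjusted p = 0.0531) between them.

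The interaction of Dio3 stayed below 0.1 whichever of the 24 mice was left out, and that of Zfp566 did not: its adjusted p passed 0.1 without 6-month WT replicates 2, 5 and 6 (0.135, 0.153 and 0.125), 12-month WT replicates 1, 2 and 5 (0.143, 0.143 and 0.144), 6-month HET replicates 5 and 6 (0.133 and 0.112) or 12-month HET replicates 2, 4 and 5 (0.14, 0.13 and 0.139). The count of genes was then 1, and it was 11 without 12-month WT replicate 3. Both genes had an adjusted p of 0.187 with the replicate number as a block, where limma called none, and Zfp566 had one of 0.229 after quantile normalization.

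Genes that the study clustered by their difference between genotypes at each age were also followed, as a description. The 12-month samples used here entered that choice, so both the counts and the opposite HET and WT medians are favoured by it and are not independent evidence. Of the 260 genes of cluster 5, 74 were called lower from 6 to 12 months in HET, beside 2.36% of all genes, and the median was −0.12, beside 0.10 in WT. Cluster 3 had 23 of 234 called higher, beside 1.07% of all genes, with a median of 0.13 in HET and −0.14 in WT, and cluster 4 had 17 of 185 called lower, with medians of −0.075 and 0.082.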

How the data were processed

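RNA-seq values of 12 Chd8 V986*/+ and 12 WT cortices of 6 and 12 months were taken from a table of 48 samples. The submitters' processing notes name STAR 2.5.2b, Salmon 0.11.3 and DESeq 1.22.2. The authors aligned reads to mm9, quantified transcripts, and deposited VST values on a log2 scale after a correction for batch effects, and the batch is not named in the sources used here. DESeq2 was not used here, since it needs counts. The most frequent value, 2.1433 (15.7% of all values), was taken as the floor, and over the 48 samples the means of replicates 1 to 3 and of replicates 4 to 6 differed by at most 3.38e-14 in any gene. The tests do not account for the correction, so p-values may be slightly too small.

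Differences were fitted with limma 3.58.1 in R 4.3.3, with a trend in the variance prior, for genes with a mean at least 0.5 above the floor, and called at a Benjamini-Hochberg adjusted p below 0.1. The interaction used 24 samples in a single fit. The fitting was tested on simulated data. Per-gene depth is unknown, and no counting intervals were computed.

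The genes named are drawn from Chd8, the 12 called genes with the largest increase and the 12 with the largest decrease whose ages do not overlap, among genes with a mean at least 2 above the floor, up to 4 members with the lowest unadjusted p of each of 15 lists, and the genes called by the interaction. A few further list members and marker genes are given beside them. The members and lists were chosen with earlier results of these data known. Alternatives were a replicate block, the set of replicates as a covariate, fits within each set, all 48 samples, read depth as a covariate, other filters, priors and scalings, a threshold of 0.05, and leaving out each mouse. Coordinates of genes are those of mm9, and promoters are from RefSeq, GRCm38.p6. Python 3.11.15, numpy 2.4.6, pandas 2.3.3 and matplotlib 3.10.9 were used.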

Additional observations from a re-analysis of the deposited data

Results flagged for a closer look

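The levels of 74 named genes and the mean levels of all 44 gene lists were searched, in the HET mice of each age, for a mouse far from the other 5, by the gap to its nearest neighbour over the range of the group. This picked out 20 of 236 groups, and chance alone picks out about 1 in 20. The causes were not tested.

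Replicate 6 of the 12-month HET mice stood apart most often. Against the range of the other 5 mice, it had 9.83 against 10.52 to 10.64 for Nr4a3, 5.28 against 6.91 to 7.60 for Lct and 5.20 against 6.9991 to 7.42 for Dsp. Its mean over the hippocampal and dentate genes was 7.87 against 8.58 to 8.80, its mean over the glucocorticoid-induced genes was 9.44 against 8.78 to 8.91, and its Chd8 level was 11.17 against 11.09 to 11.11. For the means of the cytosolic and the mitochondrial ribosomal proteins it had 10.73 against 10.92 to 11.0030 and 8.88 against 8.96 to 8.99. Replicate 3 of the 12-month mice was low for Homer1, at 12.05 against 12.32 to 12.46, and for Zdbf2, at 9.85 against 10.16 to 10.34, and high for the mean of the interneuron genes, at 10.71 against 10.53 to 10.60. Among the 6-month mice, replicate 5 was high for Gpr17, at 10.68 against 10.32 to 10.44, and low for Bhlhe40, at 11.64 against 12.12 to 12.37. Replicate 2 was high for C4b, at 10.03 against 8.98 to 9.28, and for the mean of the microglial activation and complement genes, at 7.34 against 6.92 to 7.0020. It was also high for the means of the olfactory bulb and migrating neuroblast genes, at 9.16 against 7.35 to 7.66, of the meningeal genes, at 8.39 against 7.36 to 7.69, and of the immature neuron genes, at 9.77 against 9.20 to 9.36. Replicate 1 was high for Cd52, at 5.36 against 4.75 to 4.98, and replicate 4 was low for the mean of the myelin genes, at 10.87 against 11.04 to 11.12.

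The change from 6 to 12 months differed between the genotypes for Dio3, by −1.31 (HET minus WT), and for Zfp566, by 0.72.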

How the results depend on the processing

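Of 53 named genes called in HET, 41 were called with the replicate block, 47 after quantile normalization and 23 with all 48 samples in the fit. The counts moved between settings, and the cause was not tested. HET calls (592, 185 higher and 407 lower) were 9 (2 and 7) within replicates 1 to 3, 2 (0 and 2) within replicates 4 to 6, where 3 mice an age enter limma, 100 (42 and 58) in a fit of all 48 samples, 257 (110 and 147) without the trend and 260 (72 and 188) at 0.05, and quantile normalization gave 245 lower. Leaving out 1 mouse gave 209 to 814 calls, 62 to 242 higher and 147 to 572 lower. WT calls (1) were 0 with the replicate block, with the set covariate, within replicates 4 to 6 and at 0.05, 7 with all 48 samples and 0 to 2 leaving out 1 mouse. Interaction calls (2) were 0 with the replicate block and within either set, 10 with all 48 samples, 1 after quantile normalization and at 0.05, and 1 to 11 leaving out 1 mouse. With the replicate number as a block, 395 genes were called in HET, 116 of them higher. Deviations of same-numbered mice correlated between −0.13 and 0.14, with a mean of −0.021 and a single value for each number. These values show no general pairing. Some lists did run together by number in the 6-month mice of both genotypes. The glucocorticoid-induced genes were highest in replicates 2 and 3, at 9.73 and 9.84 in HET and 10.02 and 10.19 in WT. How many lists do so was not counted, and pairing of HET with WT mice was not tested on its own. Differences that were not called changed sign in some settings: Chd8 was 0.031 within replicates 4 to 6, 0.040 after quantile normalization and −0.032 to 0.0077 leaving out 1 mouse, Rbm3 was −0.15 within replicates 1 to 3, and within replicates 4 to 6 Nkx2-2 was −0.080, Slco1a4 −0.042 and Tshb −0.065. Pomc was 0.17 without 6-month replicate 1 and −0.51 without 6-month replicate 3.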
